A study of Mus musculus with 4 samples.

Results

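Integrins, the paired adhesion receptors by which macrophages hold on to matrix and to other cells, were examined through 10 chain genes: Itgam, Itgax, Itgal, Itgb2, Itgb1, Itga4, Itga5, Itga6, Itgav and Itgb5. They were taken by symbol from the 23284 gene symbols of the deposited tables. All 10 were found in each of the 4 libraries, and all 10 had a mean of at least 1 FPKM, the level above which genes were tested. FPKM is the number of sequenced fragments divided by transcript length and by the size of the library, so that levels of different chains can be set side by side. The cells were macrophages grown from the bone marrow of wild-type mice, a primary culture. Every culture first received lipopolysaccharide (LPS), a bacterial cell wall component, at 1 µg/ml for 1 h. The tested cultures then spent 24 h in recombinant mouse galectin-1, a lectin that binds galactosides, and the control cultures in phosphate-buffered saline, called vehicle below. There were 2 libraries for galectin-1 and 2 for vehicle, and unstimulated cells were not analysed here. The sources used here give neither the age of the mice nor the dose of galectin-1.

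An integrin is a heterodimer of 1 alpha and 1 beta chain, and a chain reaches the cell surface only with a partner. The beta chain Itgb2 (CD18) is shared by the leukocyte integrins, in which it pairs with Itgam (CD11b), Itgal (CD11a) or Itgax (CD11c). Itgb1 pairs with a wider set of alpha chains, among them Itga4, Itga5, Itga6 and Itgav, and forms receptors for fibronectin, laminin and the vascular adhesion molecule VCAM-1. Itgav also pairs with Itgb5, Itgb3 and Itgb8. Galectins are known to bind glycans carried by several integrins, which are heavily glycosylated. The comparison of galectin-1 with vehicle addresses what the lectin does to macrophages, here to the transcripts of their adhesion receptors.

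None of the 10 chains passed the test between the groups, limma on log2(FPKM + 1) with a 2-sided Benjamini-Hochberg adjusted p under 0.05 over all 9380 tested genes, where 1.19% of genes passed, 0.608% as higher and 0.586% as lower with galectin-1. Itga4 and Itga5 lay nearest to the threshold, both lower with galectin-1, with adjusted p of 0.0543 and 0.0581. At an unadjusted p under 0.05 there were 5 of the 10, Itga4, Itga5, Itgal, Itgb2 and Itgb5, while 23.2% of all tested genes had one. The libraries of the groups did not overlap for 8 of the 10 chains, all but Itgb1 and Itgax, beside 55.4% of all genes tested. Differences were positive for 7 of the 10, against 50.7% of the tested genes, with a median log2 fold change of 0.05 for the chains and 0.00237 for all tested genes. Over all genes the calls were 57 higher and 55 lower with galectin-1, and 24 higher and 47 lower after quantile normalization. In limma without the variance trend, 0 of the 10 chains passed, beside 0.0213% of all tested genes, and 3 had an unadjusted p under 0.05, beside 20.7% of all tested genes. All sizes were modest, from -0.29 to 0.15 on the log2 scale. The added 1 in log2(FPKM + 1) understates the change of low genes, which among the 10 chains concerns Itgax most. It also concerns low genes outside the 10 that are named below. With 0.1 added in place of 1, Tnc moved from 0.39 to 0.57, Itgb8 from -0.52 to -0.59 and Itga9 from -0.26 to -0.33. No label says that replicate libraries derive from different cultures or mice, so p-values reflect only how these libraries vary, which may be technical. In bulk RNA a smaller number of cells that carry a chain and less of its RNA per cell cannot be told apart.

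Summed FPKM was 557661 and 555507 for galectin-1 replicates 1 and 2, and 553191 and 541138 for vehicle replicates 1 and 2. As FPKM is already divided by library size, these totals do not measure that size. The absolute depth is unknown. From the FPKM steps of low genes, depth relative to vehicle replicate 1 was 0.964 for vehicle replicate 2. It was 1.02 for galectin-1 replicate 1 and 0.879 for galectin-1 replicate 2. Macrophage markers were abundant, led by the lysozyme gene Lyz2. Their 8 genes summed to between 9956 and 9972 FPKM with galectin-1 and between 9181 and 9188 FPKM with vehicle. Of these 8 markers, 7 had positive differences, against 50.7% of all tested genes, and 0 passed, against 1.19%. Markers of other cells that carry integrins ranged from 0 to levels above those of the lowest of the 10 chains. The T cell genes Cd3e and Cd3g and the neutrophil genes Elane, Ngp and Ltf were listed at 0 in every library, and the 5 T and NK cell markers summed to at most 3.68 FPKM with galectin-1 and 4.24 FPKM with vehicle, nearly all of it Cd4. The 4 B cell markers summed to at most 3.53 FPKM with galectin-1 and 3.41 FPKM with vehicle, nearly all of it Cd79b, and the 7 neutrophil markers to at most 2.31 FPKM with galectin-1 and 2.92 FPKM with vehicle. Of the 7 dendritic cell markers, whose sum was 10.0 to 10.4 FPKM with galectin-1 and 13.6 to 13.8 FPKM with vehicle, Fscn1, an actin-bundling protein gene, made up most and fell (log2 fold change -0.47, limma adjusted p = 0.0425), while Flt3, Zbtb46, Xcr1, Clec9a and Cd209a stayed under 1 FPKM. Ccr7, the other one tested, had 1.19 and 1.31 FPKM with galectin-1, against 1.63 and 1.26 FPKM with vehicle. Its groups overlapped and it did not pass (log2 fold change -0.12, limma adjusted p = 0.590). The call of Fscn1 held in 7 of 9 alternatives that kept all libraries. It was lost in limma without the variance trend (adjusted p = 0.138) and with no filter on low values (0.130), where few genes of any kind passed. It was also lost without any of the 4 libraries in turn, as were most calls. Its log2 fold changes there ranged from -0.50 to -0.44. The 6 fibroblast markers summed to between 9.58 and 11.1 FPKM with galectin-1 and between 8.37 and 8.85 FPKM with vehicle, and the 6 osteoclast markers to between 25.9 and 26.9 FPKM with galectin-1 and between 24.2 and 26.0 FPKM with vehicle. Among the megakaryocyte and platelet markers, Pf4, a chemokine gene that mouse macrophages also express, had 159.5 and 156.1 FPKM with galectin-1, against 145.1 and 150.2 FPKM with vehicle, while the platelet integrin chain gene Itga2b stayed under 1 FPKM. The nuclear RNA Neat1 was lower with galectin-1 at 44.5 ± 0.550 FPKM, against 102 ± 6.58 FPKM with vehicle (SD, n = 2 each; limma adjusted p = 0.00174, and 0.0792 without the variance trend). Malat1, listed with Neat1 as a gene of RNA quality, had 66.9 and 78.7 FPKM with galectin-1, against 94.5 and 96.2 FPKM with vehicle. Its log2 fold change was -0.39 and did not pass (limma adjusted p = 0.0694). The part of these differences in the integrin values was not tested.

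The levels of the 10 chains are given in 3 ranges for description, and not as separate tiers. The widest step between neighbours was from Itga6 to Itgax, 5.26-fold with galectin-1 and 5.07-fold with vehicle. Itgb1, Itgam and Itgb2 lay between 145 and 189 FPKM. Itga5, Itga4 and Itgav lay between 56.1 and 82.6 FPKM, and Itgb5, Itgal, Itga6 and Itgax between 1.62 and 25.3 FPKM. With galectin-1 the order from high to low was Itgb1, Itgam, Itgb2, Itga5, Itgav, Itga4, Itgb5, Itgal, Itga6 and Itgax. With vehicle it was the same except that Itga4 stood above Itgav. No neighbours in either order overlapped between their 2 libraries. The nearest of them were Itgav and Itga4 in the galectin-1 libraries, whose means were 1.04-fold apart. The sum of the 10 chains hardly moved, at 747 ± 0.667 FPKM with galectin-1 and 744 ± 10.5 FPKM with vehicle (SD, n = 2 each), and the groups overlapped.

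**Figure D1:**
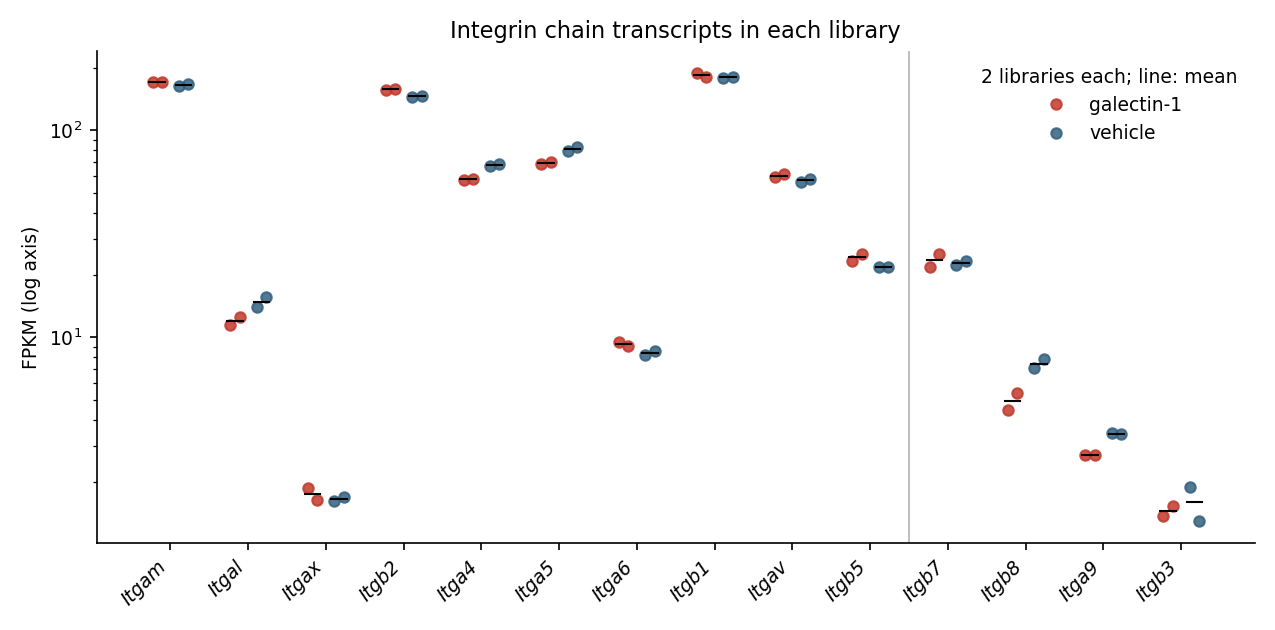
Level of each integrin chain in FPKM on a log axis, for galectin-1 (red, left of each pair) and vehicle (blue, right); points are libraries and short lines are means of 2. Left of the vertical line are the 10 chains and right of it 4 further chains above 1 FPKM; the groups separate downward for Itgal, Itga4 and Itga5 and upward for Itgb2, and lie near each other for Itgb1.

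Among the leukocyte integrins, Itgam, whose product forms with CD18 the receptor for the complement fragment iC3b and for ICAM-1, was the leading alpha chain. Itgam had 171 and 170.3 FPKM in the galectin-1 libraries, against 164 and 166 FPKM in the vehicle libraries. Both galectin-1 libraries lay above both vehicle libraries, by a margin of 3.38% between the means. On the log2 scale the difference was 0.05 with a standard error of 0.03, a 95% interval from -0.02 to 0.12 and an adjusted p of 0.385 in limma. After quantile normalization it was 0.01. The upper bound of the interval is a 1.09-fold rise. Its partner Itgb2 had 157 and 158 FPKM with galectin-1, against 145 and 146 FPKM with vehicle. The groups did not overlap, and the gap between them was larger than the gap between replicates of either group. The difference was 0.11 on the log2 scale (standard error 0.03, 95% interval 0.04 to 0.19) and missed the threshold (limma adjusted p = 0.113).

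Itgal, the alpha chain of LFA-1, which binds ICAM-1, had 11.5 and 12.5 FPKM in the galectin-1 libraries, against 14.0 and 15.7 FPKM in the vehicle libraries. Both galectin-1 libraries were below both vehicle libraries, and the replicates of each group also differed among themselves. The log2 fold change of -0.29 was the largest in size of the 10, with a standard error of 0.07, a 95% interval from -0.47 to -0.10 and a limma adjusted p of 0.111. Itgax, a chain of dendritic cells and of some macrophages, had 1.88 and 1.64 FPKM with galectin-1, against 1.62 and 1.69 FPKM with vehicle. The groups overlapped, with galectin-1 replicate 1 as the highest library. Its log2 fold change was 0.06 (standard error 0.10, 95% interval -0.19 to 0.30, limma adjusted p = 0.781). With a pseudocount of 0.1 in place of 1, the difference was 0.08 with a standard error of 0.16, so that the interval above understates the room for change at this low level. It was -0.00722 without galectin-1 replicate 1, 0.12 without galectin-1 replicate 2, 0.04 without vehicle replicate 1 and 0.11 after quantile normalization. Itgad, a further partner of Itgb2, stayed at or below 0.0790 FPKM in every library.

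Itgam and Itgax are neighbours on chromosome 7 and lie in the same orientation. In the mm10 build (GRCm38.p6), Itgam spans chr7:128062640-128118491 on the plus strand and Itgax chr7:128129526-128150657, with 11034 bases between them. Itgal lies on the same chromosome at chr7:127296139-127335137, and Itgb2 at chr10:77530329-77565708. The levels of Itgam and Itgax were far apart. Within a library Itgam was 90.6 and 103.7 times as high as Itgax with galectin-1, and 101.0 and 98.3 times as high with vehicle. The ratio of these neighbours thus overlapped between the groups. Their upstream sequences are shown because the transcripts of adjacent genes differed about 100-fold in level in the same cells. Each run is the 250 bases before the transcription start of RefSeq's promoter table, 5′ to 3′ on the plus strand, at chr7:128062390-128062639 for Itgam and chr7:128129300-128129549 for Itgax. The start used for Itgax lies inside the gene, so that the last 24 bases of its window fall within the gene span given above. Capitals mark the letters GAGGAA or its reverse complement TTCCTC, a core of sites for PU.1, the ETS factor of myeloid cells, and TGAGTCA or its reverse complement TGACTCA, a site type of AP-1 factors.
Itgam: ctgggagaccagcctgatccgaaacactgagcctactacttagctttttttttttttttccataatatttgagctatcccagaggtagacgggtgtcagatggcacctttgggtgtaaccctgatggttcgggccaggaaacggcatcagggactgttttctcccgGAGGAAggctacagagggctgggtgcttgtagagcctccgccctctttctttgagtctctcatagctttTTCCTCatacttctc
Itgax: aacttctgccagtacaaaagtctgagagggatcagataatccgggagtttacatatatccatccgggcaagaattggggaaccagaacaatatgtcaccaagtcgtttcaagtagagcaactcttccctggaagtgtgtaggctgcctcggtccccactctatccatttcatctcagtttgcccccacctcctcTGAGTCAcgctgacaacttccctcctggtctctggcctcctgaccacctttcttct
The Itgam window held GAGGAA at 2 places, in sense orientation with its first base 84 bases before the start and in antisense orientation 15 bases before it. It held no TGAGTCA. The Itgax window held no GAGGAA and 1 TGAGTCA, which began 56 bases before the start. Of 27025 genes with such a window, 23.1% held GAGGAA and 4.43% held TGAGTCA on either strand. The motifs were chosen after the sequences had been read, and a match of letters is a description and not a bound site.

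The make-up of the CD18 family differed slightly between the groups. Itgam held 92.7% and 92.3% of the summed FPKM of Itgam, Itgal, Itgax and Itgad with galectin-1, against 91.2% and 90.5% with vehicle. Itgal held 6.22% and 6.80% with galectin-1, against 7.84% and 8.52% with vehicle. For both shares the groups did not overlap. Itgal relative to Itgb2 was 0.0732 and 0.0792 with galectin-1, against 0.0969 and 0.107 with vehicle. Itgam relative to Itgb2 was 1.09 and 1.08 with galectin-1, against 1.13 and 1.14 with vehicle. These within-library ratios are built from the chain levels given above and are not separate results. For single genes, the groups did not overlap for 55.4% of those tested. The ratios are descriptions: with 2 libraries in each group, the smallest 2-sided p an exact permutation test can give is 0.333.

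Of the Itgb1 group, the beta chain itself was the most abundant of the 10 and differed least from vehicle. Itgb1 had 189 and 180.4 FPKM in the galectin-1 libraries, against 179.5 and 182 FPKM in the vehicle libraries. The groups overlapped, and galectin-1 replicate 1 stood above the other 3 libraries. The log2 fold change was 0.03 (standard error 0.03, 95% interval -0.05 to 0.12, limma adjusted p = 0.630), and it was -0.00116 without galectin-1 replicate 1 and 0.06 without galectin-1 replicate 2. It was -0.000268 after quantile normalization.

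Itga4, the alpha chain of the VCAM-1 receptor VLA-4, had 57.6 and 58.3 FPKM with galectin-1, against 67.3 and 68.6 FPKM with vehicle. The libraries of each group lay close together and the groups stood well apart, with means of 57.9 ± 0.507 FPKM with galectin-1 and 67.9 ± 0.876 FPKM with vehicle (SD, n = 2 each). The log2 fold change was -0.23 with a standard error of 0.04 and a 95% interval from -0.31 to -0.14 (limma adjusted p = 0.0543). Itga5, the alpha chain of the classical fibronectin receptor, had 68.5 and 69.9 FPKM with galectin-1, against 79.4 and 82.6 FPKM with vehicle. Again both galectin-1 libraries lay below both vehicle libraries. The means were 69.2 ± 0.952 FPKM with galectin-1 and 81.0 ± 2.24 FPKM with vehicle (SD, n = 2 each), and the log2 fold change was -0.22 with a standard error of 0.04 and a 95% interval from -0.32 to -0.13 (limma adjusted p = 0.0581). Over 13 alternative ways of processing, the adjusted p of Itga4 ranged from 0.0275 to 0.227 and that of Itga5 from 0.0300 to 0.230. Itga4 passed in 4 of the alternatives and Itga5 in 3. Without any of the 4 libraries in turn neither passed, in fits where most calls over all genes were lost. Log2 fold changes there ranged from -0.24 to -0.21 for Itga4 and from -0.25 to -0.20 for Itga5. The ratio of Itga4 over Itga5 was 0.840 and 0.834 with galectin-1, against 0.848 and 0.830 with vehicle. That the groups were alike in this ratio follows from the near-equal log2 fold changes and is not a separate result.

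Itga4 and Itga5 lie on different chromosomes, at chr2:79255426-79333114 on the plus strand and chr15:103344286-103366791 on the minus strand. Their upstream windows are shown as those of the chains nearest to the threshold, which differed by nearly the same amount. Each run is the 250 bases before the RefSeq gene start, 5′ to 3′ on the strand of the gene, at chr2:79255176-79255425 for Itga4 and chr15:103366792-103367041 for Itga5. Capitals mark the same letters as before.
Itga4: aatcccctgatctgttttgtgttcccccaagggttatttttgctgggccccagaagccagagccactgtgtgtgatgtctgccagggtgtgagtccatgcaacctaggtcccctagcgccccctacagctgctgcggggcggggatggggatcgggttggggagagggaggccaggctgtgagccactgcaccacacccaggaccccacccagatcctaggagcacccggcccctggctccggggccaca
Itga5: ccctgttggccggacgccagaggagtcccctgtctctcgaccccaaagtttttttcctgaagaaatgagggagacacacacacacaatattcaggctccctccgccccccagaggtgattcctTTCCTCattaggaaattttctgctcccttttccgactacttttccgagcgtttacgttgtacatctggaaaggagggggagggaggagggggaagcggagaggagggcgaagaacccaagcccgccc
Neither motif occurred in the Itga4 window, and the Itga5 window held GAGGAA once, in antisense orientation with its first base 127 bases before the start. G and C made up 64.0% of the Itga4 window and 55.6% of the Itga5 window, against 49.6% for Itgam, 50.0% for Itgax and a median of 52.0% over all genes. Windows were found in the RefSeq table (GRCm38.p6) for 7 of the 10 chains. Itgal, Itgb2 and Itga6 had no entry.

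Itga6, the alpha chain of laminin receptors, had 9.50 and 9.06 FPKM with galectin-1, against 8.18 and 8.59 FPKM with vehicle. The groups did not overlap, but the gap between them, 0.07 on the log2 scale, was about as wide as the gap of 0.06 between the replicates of either group. The log2 fold change was 0.13 (standard error 0.06, limma adjusted p = 0.283). Itga9, a further partner of Itgb1 and outside the 10, had 2.69 and 2.72 FPKM with galectin-1, against 3.44 and 3.42 FPKM with vehicle. Its log2 fold change of -0.26 did not pass (standard error 0.08, limma adjusted p = 0.142).

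Within a library, Itga4 and Itga5 were lower relative to Itgb1 with galectin-1. Itga4 over Itgb1 was 0.305 and 0.323 with galectin-1, against 0.375 and 0.378 with vehicle. Itga5 over Itgb1 was 0.363 and 0.387 with galectin-1, against 0.442 and 0.455 with vehicle. The groups did not overlap for either ratio. As Itgb1 itself hardly differed, these lower ratios follow from the lower Itga4 and Itga5 and are not a separate result. Itgav over Itgb1 was 0.316 and 0.339 with galectin-1, against 0.312 and 0.322 with vehicle, and the groups overlapped. Of the summed FPKM of Itga4, Itga5, Itga6, Itgav and Itga9, Itgav held 30.1% and 30.4% with galectin-1, against 26.2% and 26.4% with vehicle. Itga5 held 34.6% and 34.7% with galectin-1, against 37.0% and 37.3% with vehicle. The sum itself was lower with galectin-1, at 198 and 201 FPKM, against 214 and 222 FPKM with vehicle. A share of it can therefore rise without a rise of the chain. The 5 alpha chains together were 1.05 and 1.11 times Itgb1 with galectin-1, against 1.19 and 1.22 times with vehicle. Itgav also pairs with other beta chains, so these shares describe transcripts and not receptors.

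**Figure D2:**
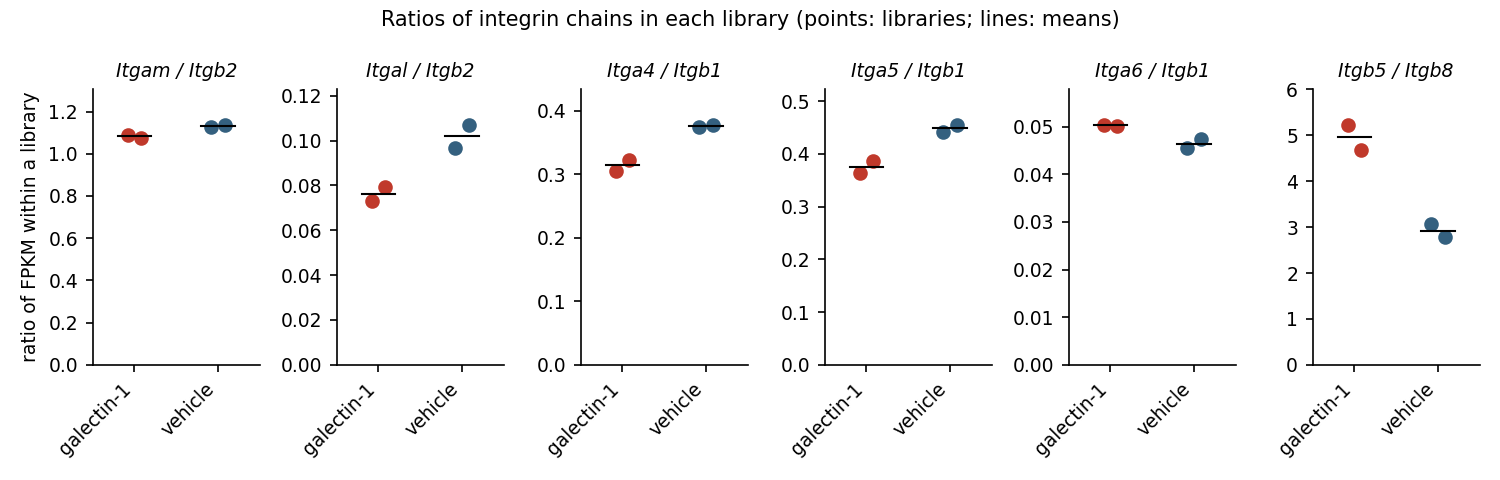
Ratios of FPKM between integrin chains of the same library, with galectin-1 (red, left) and vehicle (blue, right); points are the 2 libraries of a group, lines are means, and each axis starts at 0. The galectin-1 libraries lie below the vehicle libraries for Itgam, Itgal, Itga4 and Itga5 relative to their beta chains, and above them for Itga6 relative to Itgb1 and for Itgb5 relative to Itgb8. Only ratios whose groups did not overlap are drawn. Itgam over Itgax, Itgav over Itgb1, Itga4 over Itga5 and Itgb5 over Itgb3 overlapped and are not drawn.

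The alpha chain Itgav, which takes part in receptors of vitronectin, had 59.6 and 61.2 FPKM with galectin-1, against 56.1 and 58.5 FPKM with vehicle. The groups did not overlap, though the gap between them was narrower than that between replicates. Itgav differed by 0.08 on the log2 scale (standard error 0.04, 95% interval -0.02 to 0.17, limma adjusted p = 0.322). The difference was 0.05 without vehicle replicate 1 and 0.04 after quantile normalization. Itgb5, which with Itgav binds vitronectin and takes part in the uptake of dying cells, had 23.4 and 25.3 FPKM with galectin-1, against 21.8 and 21.7 FPKM with vehicle. Both galectin-1 libraries lay above the vehicle libraries. On the log2 scale the galectin-1 libraries were 0.11 apart, the vehicle libraries 0.00343 and the groups 0.10. The difference of Itgb5 from vehicle was 0.15 (standard error 0.05, 95% interval 0.02 to 0.28, limma adjusted p = 0.171). Itgav lies at chr2:83722303-83806917, Itga6 at chr2:71786886-71858427, Itgb1 at chr8:128685654-128733579 and Itgb5 at chr16:33829665-33949338, all on the plus strand.

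Itgb8, Itgb3 and Itgb7 were the beta chains outside the 10 that reached 1 FPKM, and each pairs with Itgav or Itga4. Itgb8, whose pair with Itgav activates latent TGF-beta, had 4.47 and 5.40 FPKM with galectin-1, against 7.12 and 7.83 FPKM with vehicle. The groups stood apart, and the log2 fold change was the largest in size of all integrin chains tested, at -0.52 (standard error 0.10, 95% interval -0.76 to -0.27), with a limma adjusted p of 0.0690. Over 13 alternatives that p ranged from 0.0348 to 0.253, and it was below the threshold in 2 of them. The ratio of Itgb5 to Itgb8 was 5.23 and 4.68 with galectin-1, against 3.06 and 2.78 with vehicle, without overlap. This ratio restates the differences of the chains themselves. The ratio of Itgb5 to Itgb3 was 17.1 and 16.4 with galectin-1, against 11.5 and 16.7 with vehicle, with overlap. Itgb3, a beta chain of osteoclasts and platelets, had 1.37 and 1.54 FPKM with galectin-1, against 1.90 and 1.30 FPKM with vehicle. Its groups overlapped, and its log2 fold change of -0.08 (limma adjusted p = 0.784) became 0.09 without vehicle replicate 1 and -0.24 without vehicle replicate 2. Itgb7, the partner of Itga4 in the gut-homing receptor of lymphocytes, had 21.9 and 25.3 FPKM with galectin-1, against 22.5 and 23.3 FPKM with vehicle. These also overlapped, with a log2 fold change of 0.04 (limma adjusted p = 0.790) that became -0.06 without galectin-1 replicate 2 and 0.14 without galectin-1 replicate 1. Of the 17 chains outside the 10, these 3 and Itga9 reached the minimum of 1 FPKM. The other 13 lay at or below 0.308 FPKM in every library, among them the megakaryocyte chain Itga2b, the intraepithelial lymphocyte chain Itgae and the epithelial chains Itgb4 and Itgb6. Itgb6 was listed at 0 in all 4 libraries.

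**Figure D3:**
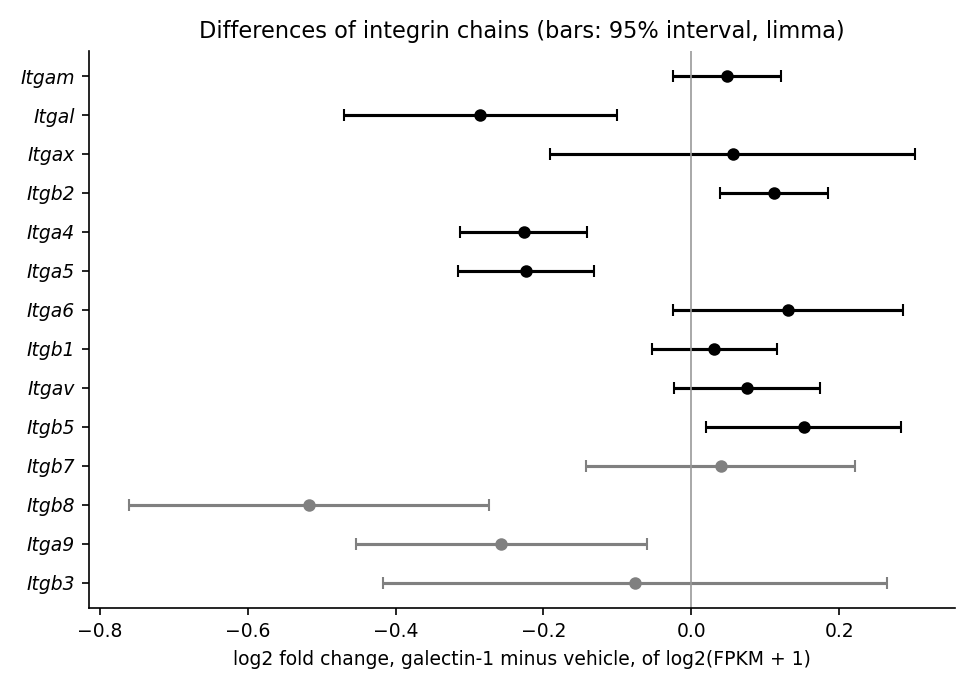
Log2 fold change of each integrin chain, galectin-1 minus vehicle, with the 95% interval from limma; black marks are the 10 chains and grey marks the 4 further chains above 1 FPKM. The intervals of Itgal, Itga4, Itga5, Itgb8 and Itga9 lie below 0 and those of Itgb2 and Itgb5 above it, while none of the 14 passed after adjustment over 9380 genes.

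Genes that act with integrins were followed in 5 lists. Of 20 genes whose products bind integrin tails or switch integrins on, 14 were tested. Flna, encoding the actin cross-linker filamin A, which binds beta tails, fell. No gene of this list rose and 13 did not pass, while 1.19% of all tested genes passed in either direction. Flna had 121 and 122 FPKM with galectin-1, against 145 and 152 FPKM with vehicle. The groups did not overlap, and the log2 fold change was -0.29 (standard error 0.04, limma adjusted p = 0.0432). Cyth1, which encodes cytohesin-1, a binder of the Itgb2 tail, had 34.4 and 34.6 FPKM with galectin-1, against 28.3 and 28.8 FPKM with vehicle (log2 fold change 0.27, limma adjusted p = 0.0532). Fermt3, encoding the kindlin of blood cells that activates Itgb2 integrins, differed by 0.14 on the log2 scale and the adaptor gene Skap2 by 0.13, with limma adjusted p of 0.113 and 0.108. The median of the list was 0.02.

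In the list of adhesion signalling, 22 of 24 genes were tested. Zyx and Fgr fell, no gene rose and 20 did not pass, beside 1.19% of all tested genes that passed. Zyx, encoding the focal adhesion protein zyxin, had 240.1 and 239 FPKM with galectin-1, against 287 and 290.2 FPKM with vehicle. Its replicates lay within 0.02 of each other on the log2 scale and the groups 0.26 apart, with a log2 fold change of -0.27 (standard error 0.03, limma adjusted p = 0.0315). Fgr, a Src family kinase that acts below Itgb2 in myeloid cells, had 20.2 and 18.5 FPKM with galectin-1, against 27.4 and 27.3 FPKM with vehicle (-0.48, standard error 0.06, limma adjusted p = 0.0371). The adaptor gene Crk and the exchange factor gene Vav1 had log2 fold changes of 0.19 each and limma adjusted p of 0.0690 and 0.0749. The list had 14 positive and 8 negative differences and a median of 0.02, while 50.7% of all tested genes had a positive difference. Flna, Zyx and Fgr each passed in 7 of the 9 alternatives that kept all libraries. They lost the call in limma without the trend, at an adjusted p of 0.138 each, and with no filter on low values, at 0.123 to 0.135. Few genes of any kind passed there, 1 higher and 1 lower without the trend and 1 higher and 2 lower with no filter. Without any of the 4 libraries in turn the call was also lost, in fits where most calls over all genes were lost. Log2 fold changes there ranged from -0.32 to -0.25 for Flna, -0.28 to -0.26 for Zyx and -0.54 to -0.42 for Fgr. Among the named genes that were higher with galectin-1, Cyth1 passed in 5 of the 9 alternatives that kept all libraries. Crk and Vav1 passed in 1 each.

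No ligand, membrane partner or traffic gene passed, beside 1.19% of all tested genes. Of 26 integrin ligand genes, 12 were tested, with a median log2 fold change of 0.07. Fn1, encoding fibronectin, had 7.55 and 7.48 FPKM with galectin-1, against 5.18 and 5.97 FPKM with vehicle (0.38, standard error 0.08, limma adjusted p = 0.0848). Icam1, the ligand of the Itgal and Itgam receptors, had 867 and 874 FPKM with galectin-1, against 944 and 929 FPKM with vehicle (-0.11, standard error 0.03, limma adjusted p = 0.101). For both genes the groups did not overlap. The matrix genes Tnc and Lamc1 had log2 fold changes of 0.39 and 0.20, with limma adjusted p of 0.113 and 0.115. Of 15 membrane partner genes, all were tested and the median was 0.06. Positive differences were found for 12 of them, against 50.7% of all tested genes. Slc3a2, encoding the CD98 heavy chain that binds beta tails, had 164 and 166 FPKM with galectin-1, against 146 and 143 FPKM with vehicle (0.19, standard error 0.03, limma adjusted p = 0.0562). Slc3a2 passed as higher in 3 of the 9 alternatives that kept all libraries. Tspan4, a tetraspanin gene, and Lrp1, an endocytic receptor gene, had log2 fold changes of 0.15 and 0.09, with limma adjusted p of 0.120 and 0.265. The cells' own galectin-1 gene, Lgals1, had 793 and 836 FPKM with galectin-1, against 778 and 764 FPKM with vehicle (0.08, limma adjusted p = 0.243). That difference was 0.04 without galectin-1 replicate 2 and 0.02 after quantile normalization. Of 15 integrin traffic genes 14 were tested, with a median of 0.04. The endosomal GTPase gene Rab5a differed by 0.13 on the log2 scale and the endocytic adaptor gene Dab2 by -0.11, with limma adjusted p of 0.116 and 0.130. Ehd1 and Arf6, both of endosomal recycling, had log2 fold changes of -0.08 and -0.09, with limma adjusted p of 0.176 and 0.209.

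**Figure D4:**
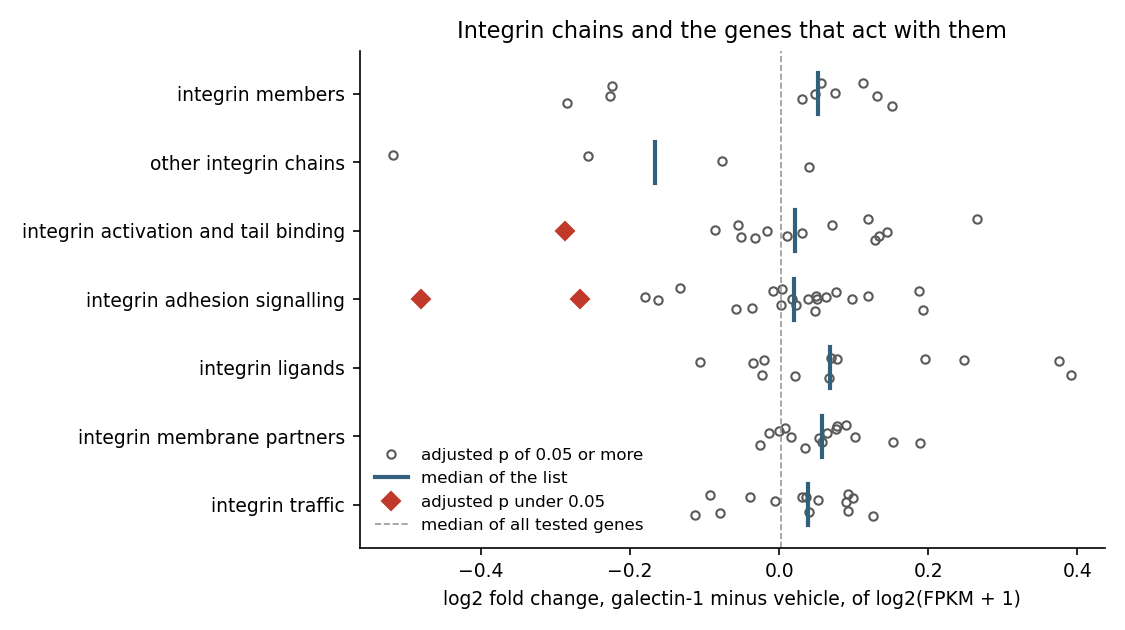
Log2 fold change, galectin-1 minus vehicle, of each tested gene in 7 lists; open circles did not pass, red diamonds had an adjusted p under 0.05, blue bars are list medians and the dashed line is the median of all tested genes. The 3 diamonds are Flna, Zyx and Fgr, all below 0, and the 10 integrin members hold none.

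Under the 13 alternative ways of processing, 8 of the 10 chains kept the direction of their difference, and Itgax and Itgb1 did not. For Itgal, log2 fold changes ranged from -0.36 to -0.21, with adjusted p of 0.0627 to 0.316, and for Itgb2 from 0.09 to 0.12, with adjusted p of 0.0922 to 0.301, all in limma. Leaving out a library moved Itgb5 between 0.10 and 0.21 and Itga6 between 0.10 and 0.16 on the log2 scale, more than any other setting did for these chains.

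**Figure D5:**
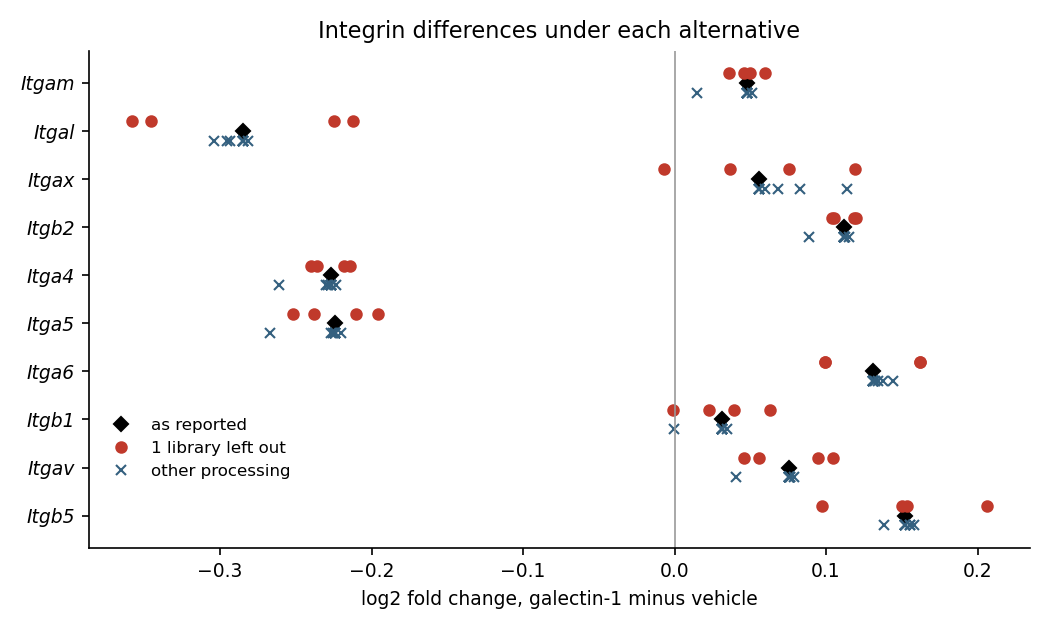
Log2 fold change of the 10 chains as reported (black), with 1 library left out (red) and under the other processing alternatives (blue). Itgal, Itga4 and Itga5 stay below 0, Itgax and Itgb1 reach 0 or fall just below it, and the other 5 chains stay above 0 in every alternative run.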

How the data were processed

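RNA sequencing of 4 libraries from LPS-stimulated mouse macrophages was examined, grouped by title. The values the authors deposited are FPKM, with 1 entry per symbol in each library's table. Tools in the submitters' processing notes are Cufflinks 2.2.1, TopHat2 2.0.13, SAMtools 0.1.19 and Bowtie2 2.2.3, with mm10 as build and no roles stated. Annotation, use of strand and any scaling between libraries were not stated there. The kit was a stranded one for mRNA, per the labels' protocols.

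Values were used as log2(FPKM + 1). Genes whose mean reached 1 FPKM, 9380 in all, were fitted with limma 3.58.1 in R 4.3.3 (moderation with trend, 2 residual and 3.89 prior degrees of freedom). No counts were used, so no count model was fitted. No libraries were identical; log2 values correlated at 0.988 between the galectin-1 libraries and 0.983 between the vehicle libraries. Of 180 list symbols 178 were found, 1 of them under an older symbol. The members and lists were chosen with earlier results of these data known. Named were the 10 members, further chains of at least 1 FPKM, and per list the genes past the threshold and up to 4 of smallest p. Lrp1 and Lgals1 come from these lists. Fscn1, a dendritic cell marker, was added apart from that rule, and alone of the markers was run under the alternatives. Coordinates and promoters are RefSeq's on GRCm38.p6 (mm10), counted from 1. The alternatives were 2 pseudocounts, 2 filters, 2 scalings, limma without the trend, no small RNA entries, a replicate block and each library left out.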

Additional observations from a re-analysis of the deposited data

How the results depend on the processing

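The count of integrin members past the threshold was 0 higher in all 13 alternatives and 0 lower in 9 of them. It was 2 lower with the minimum mean set to 5 FPKM, without small RNA entries and with the replicate block (Itga4 and Itga5 in each), and 1 lower after quantile normalization (Itga4, adjusted p = 0.0498). The cause was not tested. Over all genes, 57 were higher and 55 lower. There were 127 higher and 99 lower with a minimum of 5 FPKM, 189 and 176 without small RNA entries, 123 and 117 with the replicate block, 1 and 2 with no filter on low values, 1 and 1 in limma without the trend, and 24 and 47 after quantile normalization. With 1 library left out, 4 to 9 genes were higher and 3 to 12 lower; there the lone library of a group is assumed to vary like the other group. The replicate numbers do not pair the libraries by any label, and deviations of same-numbered libraries correlated at 0.0114 over the tested genes, so the block shows only how the count moves. Quantile normalization also moved Rab5a to 0.08 on the log2 scale. Of the log2 fold changes that turned sign, Itgb1 was -0.000268 after quantile normalization. With 1 library left out, Itgb1 ranged from -0.00116 to 0.0632, Itgax from -0.00722 to 0.119, Itgb3 from -0.241 to 0.0886 and Itgb7 from -0.0604 to 0.139. Among the members' values under the alternatives, 119 kept direction and side of the threshold, 7 newly passed and 3 turned sign. Itgax was not tested at the minimum of 5 FPKM. With the absolute depth unknown, no counting interval can be given, which matters most for Itgax and Itgb3.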
